A study of Rattus norvegicus with 4 samples.

Results

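The genes described here drive the cell division cycle or copy DNA in it. They were chosen by name: a list of 43 cell cycle and DNA replication genes was matched to the single gene symbol that the array's annotation gives each probe set. Of the 43, 42 were matched, out of 14217 genes with such a probe set, and 18 of them act around G1 and S phase and 24 around G2 phase and mitosis. Rrm2, a subunit of ribonucleotide reductase, shares its probe sets with another symbol and was not analysed here. An Affymetrix rat array measured transcripts in cells of the pancreatic lymph node of female BioBreeding (BB) rats of day 65 that the labels call mast cells and AA4+, after an antibody to gangliosides of rat mast cells. The DRlyp/lyp rats, diabetes-prone, are homozygous for lyp, a mutation of Gimap5 that leaves few T cells outside the thymus, and the DR+/+ rats, diabetes-resistant, carry the normal gene. Each group is a single pool of RNA from 8 animals, put through 2 separate amplifications and 2 arrays, so there are 4 arrays and those of a pool are technical replicates. The tests below set the gap between 2 pools against the spread between amplifications and do not cover the spread between animals.

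A cell enters the cycle when D-type cyclins with Cdk4, and then cyclin E with Cdk2, inactivate the retinoblastoma protein and free the E2F factors, which switch on the genes for copying DNA. The Mcm proteins form the ring-shaped helicase that is loaded on replication origins in G1, and Pcna, Fen1 and the nucleotide enzymes serve the fork in S phase. The mitotic genes are held down in resting cells by the DREAM complex and are switched on later, by B-Myb with the MuvB core and by Foxm1, largely through a promoter element called the cell cycle genes homology region (CHR) that stands near CCAAT boxes bound by NF-Y. In lymph nodes these transcripts mark mainly lymphocytes dividing after contact with antigen, whereas tissue mast cells divide rarely.

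The promoters show which of these elements the genes carry, and are given here because most of the mitotic genes were higher in 1 pool. A promoter was found for 35 of the 42 genes in the RefSeq table of the GRCr8 assembly. Each of the 35 gave 1 promoter. The shares over the whole table below were not limited to 1 promoter per gene or to genes on the array. Searched on both strands, from 250 bases before to 30 bases after the annotated start, were CCAAT, the CHR as TTTGAA or TTCGAA, and the E2F site as TTTCCCGC, TTTCGCGC, TTTGCCGC or TTTGGCGC. The motifs may overlap one another. A CHR stood in 14 of 20 promoters of G2/M genes (70%), 3 of 15 of G1/S genes (20%) and 18.7% of all 33469 promoters in the table. CCAAT stood in 16 of 20, 9 of 15 and 36.2%, and at least 2 copies of it in 13 of 20, 4 of 15 and 10.5%. An E2F site stood in 6 of 15 promoters of G1/S genes (40%), 1 of 20 of G2/M genes (5%) and 2% of all. The 6 G1/S genes with an E2F site were Mcm2, Mcm3, Mcm5, Mcm6, Mcm7 and Tyms. Among the G2/M genes a CHR stood in 11 of 14 promoters of those higher in the DRlyp/lyp pool (below) and 3 of 6 of the others, a difference that was not tested. A match describes the letters and does not show that a factor binds. Whether the annotated starts are those used in these cells was not tested, so a promoter without a match may be a window at another place.

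The 5 mitotic genes whose differences passed the threshold even without a filter on dim probe sets are printed first, from 250 bases before the start onward on the coding strand. Capitals mark CCAAT, CHR and E2F matches on either strand, and adjoining matches run together.
Cdk1 (GRCr8, chr20:19265043-19265322, plus strand): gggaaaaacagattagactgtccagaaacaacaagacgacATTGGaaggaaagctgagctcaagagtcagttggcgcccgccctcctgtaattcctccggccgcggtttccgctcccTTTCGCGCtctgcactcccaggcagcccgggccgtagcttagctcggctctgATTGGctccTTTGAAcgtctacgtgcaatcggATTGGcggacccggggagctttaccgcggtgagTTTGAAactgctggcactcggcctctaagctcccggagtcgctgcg
Ccnb2 (GRCr8, chr8:79981629-79981908, minus strand): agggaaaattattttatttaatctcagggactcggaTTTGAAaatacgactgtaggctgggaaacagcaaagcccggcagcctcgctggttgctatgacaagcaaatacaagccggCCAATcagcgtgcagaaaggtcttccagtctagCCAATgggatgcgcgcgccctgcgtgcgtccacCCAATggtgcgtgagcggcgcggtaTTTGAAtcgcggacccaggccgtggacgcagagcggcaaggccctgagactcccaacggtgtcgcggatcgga
Mki67 (GRCr8, chr1:199952564-199952843, minus strand): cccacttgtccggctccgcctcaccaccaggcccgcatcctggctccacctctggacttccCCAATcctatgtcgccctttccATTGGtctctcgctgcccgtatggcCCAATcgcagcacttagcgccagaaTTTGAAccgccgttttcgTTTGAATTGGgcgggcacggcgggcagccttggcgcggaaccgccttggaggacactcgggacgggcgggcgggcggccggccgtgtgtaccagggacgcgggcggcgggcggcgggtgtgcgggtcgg
Cenpf (GRCr8, chr13:103760857-103761136, minus strand): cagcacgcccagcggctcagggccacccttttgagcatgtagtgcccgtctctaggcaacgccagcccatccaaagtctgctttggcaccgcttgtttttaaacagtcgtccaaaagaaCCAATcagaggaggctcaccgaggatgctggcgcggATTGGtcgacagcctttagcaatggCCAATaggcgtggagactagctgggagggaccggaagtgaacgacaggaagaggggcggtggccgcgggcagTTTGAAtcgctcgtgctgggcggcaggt
Nusap1 (GRCr8, chr3:127057045-127057324, plus strand): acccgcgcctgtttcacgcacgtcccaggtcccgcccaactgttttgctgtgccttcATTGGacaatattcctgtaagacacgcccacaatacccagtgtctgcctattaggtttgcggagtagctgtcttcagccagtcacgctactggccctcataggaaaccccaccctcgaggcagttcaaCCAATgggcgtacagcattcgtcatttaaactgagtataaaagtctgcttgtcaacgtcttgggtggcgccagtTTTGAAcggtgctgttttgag

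Next are 3 helicase genes that were higher in the DRlyp/lyp pool and Cdk2, the one gene that was lower, printed in the same way. In Mcm2 and Mcm5 a pair of E2F matches on opposite strands overlap, so a single run of capitals holds both, and in Mcm7 an E2F match overlaps a CCAAT. Cdk2 holds 1 CCAAT and neither of the other motifs.
Mcm2 (GRCr8, chr4:122918065-122918344, minus strand): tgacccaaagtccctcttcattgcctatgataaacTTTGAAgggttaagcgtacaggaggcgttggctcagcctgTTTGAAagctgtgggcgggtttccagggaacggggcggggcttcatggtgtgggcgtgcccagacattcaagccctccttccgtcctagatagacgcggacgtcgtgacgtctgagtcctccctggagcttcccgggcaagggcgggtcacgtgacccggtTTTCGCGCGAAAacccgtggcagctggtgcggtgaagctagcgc
Mcm5 (GRCr8, chr19:13488563-13488842, plus strand): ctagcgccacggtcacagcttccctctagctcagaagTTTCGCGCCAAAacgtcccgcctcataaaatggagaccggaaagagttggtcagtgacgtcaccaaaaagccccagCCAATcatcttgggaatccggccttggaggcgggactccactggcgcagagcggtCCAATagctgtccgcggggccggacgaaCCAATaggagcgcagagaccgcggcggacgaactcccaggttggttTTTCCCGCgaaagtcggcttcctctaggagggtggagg
Mcm7 (GRCr8, chr12:22163149-22163428, minus strand): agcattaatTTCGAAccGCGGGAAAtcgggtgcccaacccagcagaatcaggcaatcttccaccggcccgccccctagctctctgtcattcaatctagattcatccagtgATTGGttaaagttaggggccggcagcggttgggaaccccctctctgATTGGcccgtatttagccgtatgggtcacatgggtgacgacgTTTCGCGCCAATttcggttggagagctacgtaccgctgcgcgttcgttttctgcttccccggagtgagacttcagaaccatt
Cdk2 (GRCr8, chr7:1721849-1722128, minus strand): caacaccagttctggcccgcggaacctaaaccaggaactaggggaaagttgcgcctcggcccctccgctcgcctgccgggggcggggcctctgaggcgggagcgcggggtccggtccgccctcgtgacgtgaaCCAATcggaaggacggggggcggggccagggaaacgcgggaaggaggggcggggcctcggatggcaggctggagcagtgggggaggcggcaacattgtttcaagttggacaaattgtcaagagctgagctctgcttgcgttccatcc

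The arrays had the same trimmed mean and differed in markers of other cells and in the 3′ excess of control transcripts. Signals are in the deposited linear units, and pairs of values are given as DRlyp/lyp against DR+/+ arrays, replicate 1 first. The trimmed mean signal was 150.1 on each of the 4 arrays. Scaling can set such an equal value, so it does not show that the arrays are alike. The median signal was 30.3 and 28.4 against 27.8 and 26.5. The share of signals at the floor of 6.8 was 23.1% and 24.4% against 25.1% and 27.5%. The signal of the 3′ beta-actin control exceeded that of the 5′ control by 4.43 and 4.55 on the log2 scale on the DRlyp/lyp arrays and by 3.01 and 3.10 on the DR+/+ arrays. For the GAPDH control it was 2.49 and 2.44 against 1.74 and 1.57. This excess was thus larger in the DRlyp/lyp pool for both controls, with the smaller gap for GAPDH. The amplification ran 2 cycles from 50 ng of RNA. What it and the state of the RNA each gave to the excess was not tested. Of the mast cell markers Cpa3, a granule protease, read 528 and 516 against 426 and 462, while Kit, the stem cell factor receptor, stayed at or below 11.3 on all arrays. The summed signal of 18 T cell markers was 13065 to 13263 against 3232 to 3400.1, with 15 of 17 tested genes higher, among them Cd3e (781 and 882 against 75.5 and 80.7) and Cd3g (1359 and 1434 against 223 and 211), and 1 lower. The 9 B cell markers summed to 12735 to 13386 against 16061 to 17369.6, with 5 of 9 lower, Cd79b among them (454 and 472 against 1355 and 1699.7), and the others not called. The 7 germinal centre B cell markers, of the dividing B cells of a lymph node, summed to 1452 to 1525 against 1470.3 to 1480.5, with 1 of 6 lower and the others, Bcl6 among them (629.7 and 645 against 687 and 669), not called. The 13 mast cell markers summed to 6711 to 6979 against 4688 to 4782. Of 11 tested, 4 were higher (Fcer1a, Mcpt1, Srgn and Il1rl1) and 2 lower (Tpsab1 and Tpsb2), named after their values were seen. Srgn alone gave 3749 and 4099 of the sum, against 2846 and 2945. The 8 plasma cell markers summed to 19490.4 to 19686 against 17029.5 to 17548. Of these 8, 2 were higher, Jchain at 7301 and 7638 against 5541 and 5732 and Mzb1 at 5672.4 and 5701.5 against 4550 and 4662.5. Jchain and Mzb1 together gave most of the sum. Another 3 were lower (Tnfrsf17, Fkbp11 and Sec11c), and the median log2 difference of the 8 was -0.07. All but Jchain were named after their values were seen. The 10 NK cell markers summed to 6597 to 6706 against 5032 to 5478. Of these 10, 5 were higher, with Klrc2 at 325 and 324 against 84.8 and 55.0, and 2 lower. The 15 macrophage and dendritic cell markers summed to 20418 to 20634 against 21330.4 to 21921. Of these 15, 5 were higher, and 7 lower, with C1qb at 285 and 338 against 834 and 952. Lyz2, higher and named after its values were seen, alone gave 10794.5 and 10459.1 of the sum, against 7377.4 and 7127.4. The macrophage and dendritic cell sum thus rests in large part on that gene. The 6 neutrophil markers summed to 3173 to 3234 against 1683 to 2001 (3 of 5 higher, with Fcnb at 2078 and 2119 against 994 and 1168), the 7 erythroid markers to 2149.5 to 2266 against 941 to 954 (2 of 4 higher, with Hbb at 1595 and 1490.4 against 126 and 144, and 1 lower) and the 11 exocrine pancreas genes to 9033 to 9304 against 211 to 225 (11 of 11 higher, with Prss1 at 1536 and 1503 against 32.8 and 39.6). The part of these other cells and of the 3′ excess in the differences below was not tested, and in these bulk samples fewer cells of a type cannot be told apart from less RNA per cell.

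Genes of the cell cycle stood higher in the DRlyp/lyp pool, the mitotic genes with the larger median difference. Of 42 genes tested, 24 were higher and 1 was lower, and 17 did not pass the threshold (adjusted p under 0.05, limma, adjusted over all 16068 probe sets tested). Over all 9349 genes tested, 20.9% were higher and 21.1% lower. Higher by at least 2-fold were 14 of the 42, and 5.11% of all genes, and lower by at least 2-fold were 1 of the 42, Cdk2, and 4.60% of all genes. The median log2 difference, DRlyp/lyp minus DR+/+, was 0.74 over the 42 genes and 0.00 over all genes tested. Both DRlyp/lyp arrays lay above both DR+/+ arrays for 33 of the 42 genes and for 35.4% of all genes, and below them for 6 of the 42 and for 36.4% of all genes. All 42 passed the filter on dim probe sets, a signal above 28.3 on at least 2 arrays, and Birc5 alone was below it on both arrays of a pool.

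The mitotic genes held most of the higher calls. Of 24 G2/M genes, 17 were higher (70.8%) and 0 lower (limma, also 0 at an unadjusted p under 0.05). Their median log2 difference was 0.97 in a range from -0.19 to 1.89. Of 18 G1/S genes, 7 were higher (38.9%) and 1 was lower. Their median was 0.26 in a range from -1.78 to 1.29. By role it was -0.20 for the 6 G1 cyclins and kinases and 0.46 for the 9 genes of the fork and of helicase loading. For the 3 genes of nucleotide supply it was 0.34. The difference between the medians of all G2/M and all G1/S genes was 0.72 on the log2 scale and has no test. It was 0.52 with the probe sets of each gene averaged. The mean log2 signal of the G2/M genes was 7.56 and 7.64 on the DRlyp/lyp arrays and 6.65 and 6.66 on the DR+/+ arrays, a difference of 0.94. That of the G1/S genes was 8.10 and 8.16 on the DRlyp/lyp arrays and 7.98 and 7.87 on the DR+/+ arrays, a difference of 0.21. In both phases the 2 DRlyp/lyp arrays lay above the 2 DR+/+ arrays.

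**Figure D1:**
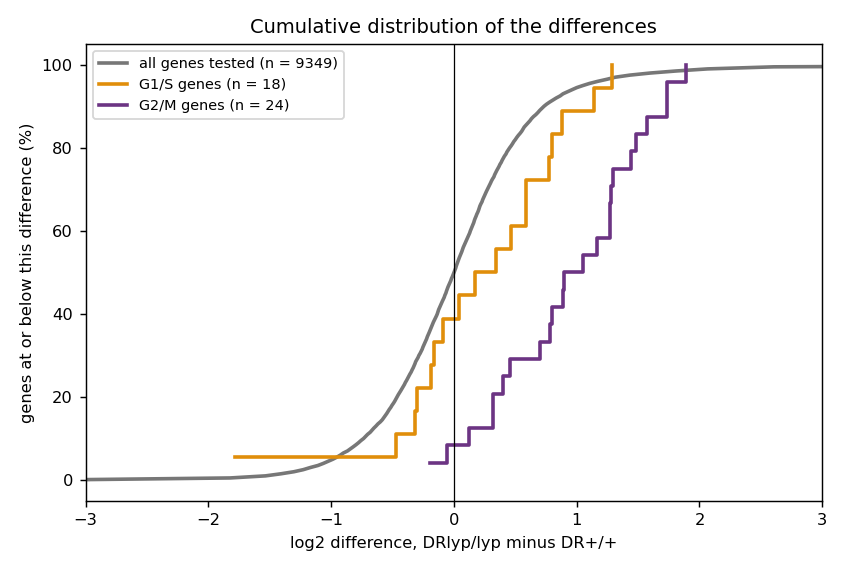
Cumulative share of genes (y axis, percent) at or below each log2 difference, DRlyp/lyp minus DR+/+ (x axis), for all 9349 genes tested and the 18 G1/S and 24 G2/M genes. The G2/M curve lies to the right of the curve of all genes, with a median of 0.97 against 0.00, and the G1/S curve, with a median of 0.26, lies between them over most of its range.

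The count of genes that passed changed with the settings of the test. Without a filter on dim probe sets 5 of the 25 calls were kept (Ccnb2, Cdk1, Cenpf, Mki67 and Nusap1), and 1671 of the 6302 called probe sets were left in all. In a test against a 1.5-fold difference 9 were kept, namely those 5 and Cdca3, Cdkn3, Racgap1 and Cdk2. Adding 50 to each signal instead of using a floor, which shrinks the differences of dim genes, kept each call and gave log2 differences of 0.89 for Bub1b, 1.15 for Ccna2, 0.76 for Ccne1, -1.08 for Cdk2, 0.54 for Plk1 and 0.59 for Tyms, each more than 1.5 times smaller than the values below. The count of higher genes was 18 or 15 with DRlyp/lyp array 1 or 2 left out and 23 or 20 with DR+/+ array 1 or 2 left out. It was 19 without the trend of variance with intensity in the fit, called the intensity trend below. Of the 25 calls, 14 were kept with any 1 array left out. The settings that ended a call are given beside each gene below, except the absence of a filter and the 1.5-fold test. With each array centred on its median, which moved the median of all genes by -0.11, 22 of the 42 were higher and 2 lower; 75% of the G1/S calls were then higher in place of 87.5%, 65.6% of the calls among other cell cycle genes in place of 75.8%, and 35.6% of all calls in place of 49.8%. Directions below are those of the deposited scaling, and of the genes named only Rrm1 turned when the arrays were centred.

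Among the cyclins and kinases of G1, cyclin E1 and cyclin D2 rose and Cdk2 fell. Ccne1, the cyclin that drives entry into S phase, read 137 and 115 on the DRlyp/lyp arrays and 78.1 and 33.7 on the DR+/+ arrays. Its arrays did not overlap, with the widest gap between the arrays of a pool on the DR+/+ side, and the log2 difference was 1.29 ± 0.34 (SE), adjusted p = 0.0107. For Ccne1 the adjusted p rose to 0.121 with DRlyp/lyp array 1 left out, 0.0615 with DRlyp/lyp array 2 left out and 0.0982 without the intensity trend. Ccne1 differed by 1.90 with DR+/+ array 1 left out and 0.68 with DR+/+ array 2 left out, on the log2 scale. Ccnd2, a D-type cyclin induced by growth signals in lymphocytes, read 324 and 343 on the DRlyp/lyp arrays and 231 and 214 on the DR+/+ arrays. Both DRlyp/lyp arrays were higher, by 1.5-fold (adjusted p = 0.00477). Ccnd2 missed the threshold at an adjusted p of 0.0755 with DRlyp/lyp array 2 left out. Cdk2, the partner of cyclins E and A, read 33.5 and 52.3 on the DRlyp/lyp arrays and 181 and 115 on the DR+/+ arrays. It was the one gene of the 42 called lower, by 3.45-fold (log2 difference -1.78 ± 0.30 (SE), adjusted p = 0.000636), and DRlyp/lyp array 1 lay lowest. A second probe set of Cdk2 was also lower (44.8 and 41.7 against 87.3 and 70.1, a log2 difference of -0.86, adjusted p = 0.0272).

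The other G1 genes did not pass the threshold. Ccnd1, the D-type cyclin of many non-lymphoid cells, read 263 and 246 against 280.0 and 262, with overlapping arrays and a log2 difference of -0.09 (adjusted p = 0.639). Its dimmer probe sets read lower in the DRlyp/lyp pool, 1 of them past the threshold (27.4 and 49.6 against 72.2 and 69.4, a log2 difference of -0.94, adjusted p = 0.0421) and 1 not (39.7 and 60.2 against 59.6 and 71.7, a log2 difference of -0.42, adjusted p = 0.296). Ccnd3, the D-type cyclin of developing lymphocytes, read 196 and 221 against 285 and 235, a log2 difference of -0.32 (adjusted p = 0.131). Cdk4, the kinase partner of the D-type cyclins, read 576 and 498 against 720.4 and 606, a log2 difference of -0.30 (adjusted p = 0.0608). It passed the threshold as lower with DR+/+ array 2 left out (adjusted p = 0.0269), with median centring (adjusted p = 0.0158) and with a filter at the 75th percentile (adjusted p = 0.0485). The arrays of Ccnd3 and Cdk4 did not overlap, with the DRlyp/lyp pool below.

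Of 6 subunits of the Mcm helicase, 4 rose and the other two, Mcm3 and Mcm4, did not pass the threshold. Mcm7 read 951 and 814 on the DRlyp/lyp arrays and 463 and 496 on the DR+/+ arrays, both DRlyp/lyp arrays far above, a log2 difference of 0.88 ± 0.11 (SE), adjusted p = 6.88e-05. Mcm2 read 708 and 639.5 on the DRlyp/lyp arrays and 338 and 442 on the DR+/+ arrays, again without overlap, a log2 difference of 0.80 ± 0.13 (SE), adjusted p = 0.000645. Mcm5 read 295 and 282 on the DRlyp/lyp arrays and 186 and 153 on the DR+/+ arrays, a log2 difference of 0.77 ± 0.16 (SE), adjusted p = 0.00217. These 3 subunits kept their calls with any array left out. Mcm6 read 425 and 572 on the DRlyp/lyp arrays and 346 and 369.9 on the DR+/+ arrays, a log2 difference of 0.46 ± 0.14 (SE), adjusted p = 0.0235. For Mcm6 the adjusted p rose to 0.323 with DRlyp/lyp array 2 left out, 0.103 with DR+/+ array 1 left out, 0.0542 with DR+/+ array 2 left out, 0.101 with median centring and 0.138 without the intensity trend. Mcm6 differed by 0.25 with DRlyp/lyp array 2 left out, on the log2 scale. Mcm3 read 674 and 669 against 721 and 781 and Mcm4 211 and 210.0 against 238 and 242, both with the DRlyp/lyp arrays slightly below the DR+/+ arrays. Their log2 differences were -0.16 (adjusted p = 0.2) and -0.19 (adjusted p = 0.322), so no difference was detected for them. That the subunits differ from one another was not tested.

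Of the other replication genes, Tyms rose and the rest did not pass the threshold. Tyms, which makes thymidylate, read 66.7 and 92.6 on the DRlyp/lyp arrays and 32.0 and 39.7 on the DR+/+ arrays, a log2 difference of 1.14 ± 0.30 (SE), adjusted p = 0.0105. Tyms missed the threshold at an adjusted p of 0.156 with DRlyp/lyp array 2 left out. Pcna, the sliding clamp of the fork, read 2712 and 2502 against 2258 and 2365, a log2 difference of 0.17 (adjusted p = 0.055; 0.0422 with a filter at the 75th percentile, past the threshold). Gmnn, or geminin, which blocks a second loading of the helicase, read 110.5 and 94.1 against 70.3 and 65.7, a log2 difference of 0.59 (adjusted p = 0.0615), and its second probe set was higher past the threshold (88.1 and 70.3 against 30.3 and 17.9, a log2 difference of 1.76, adjusted p = 0.00213). Tk1, thymidine kinase, read 141 and 135 against 99.6 and 118, a log2 difference of 0.34 (adjusted p = 0.181), and again a dimmer probe set was higher (80.2 and 77.1 against 20.1 and 38.2, 2.84-fold higher, adjusted p = 0.00541). With the mean of their probe sets Gmnn and Tk1 both passed (adjusted p = 0.00605 and 0.0232), as did Gmnn without the intensity trend (adjusted p = 0.0492). Rrm1, the large subunit of ribonucleotide reductase, read 559 and 564 against 552 and 539.5, a log2 difference of 0.04 (adjusted p = 0.775) that became -0.071 with median centring. Fen1, which trims the lagging strand, read 98.4 and 159 against 192 and 157, with overlapping arrays and a log2 difference of -0.47 (adjusted p = 0.126), and was lower past the threshold with DRlyp/lyp array 2 left out (adjusted p = 0.0472).

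**Figure D2:**
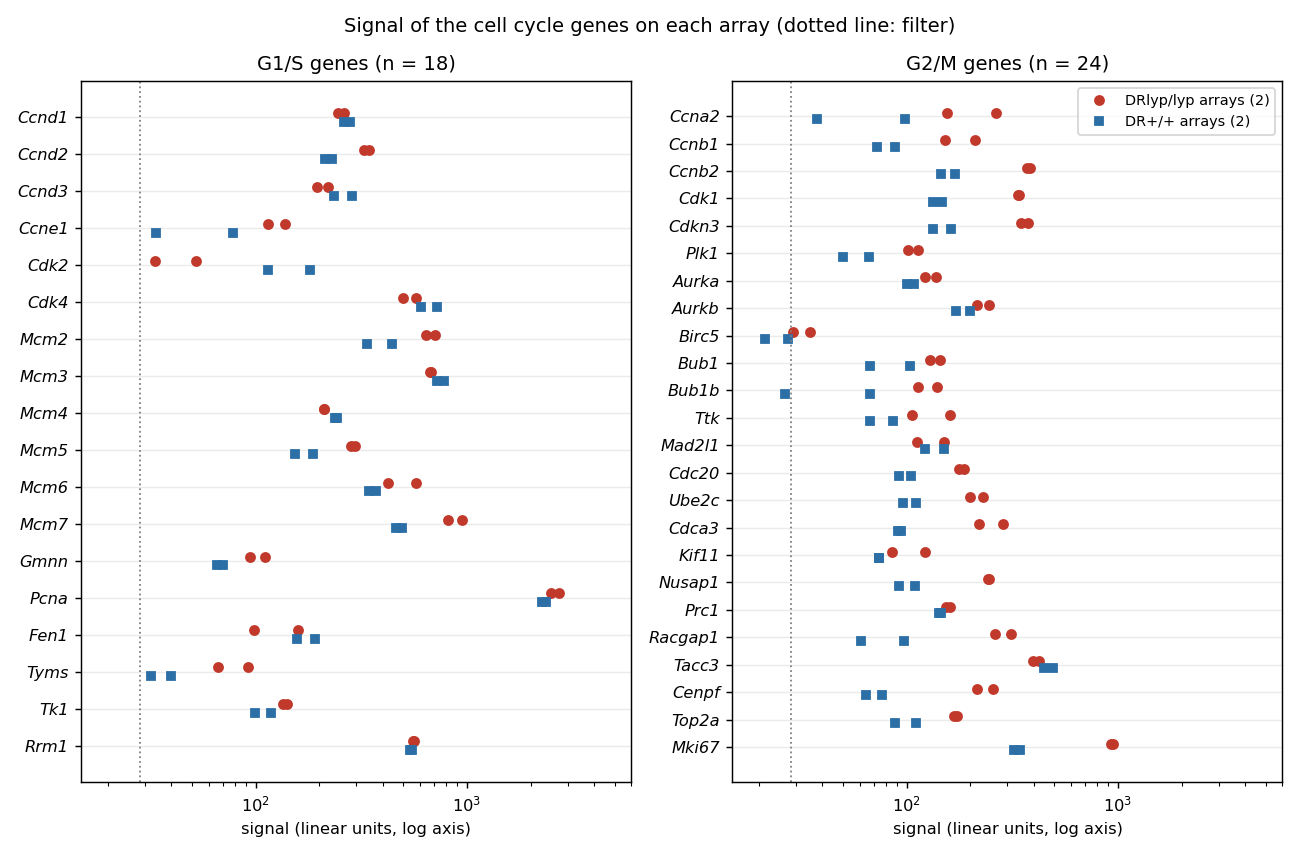
Signal of each of the 42 genes on each array (x axis, linear units on a log axis), with 2 DRlyp/lyp arrays as circles, 2 DR+/+ arrays as squares and the filter of 28.3 as a dotted line. Both circles lie at higher signal than both squares for 22 of the 24 G2/M genes in the right panel. The same holds for 11 of the 18 G1/S genes in the left panel, and for 35.4% of all genes tested.

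Cyclins A and B and their kinase rose. Cdk1, the kinase that starts mitosis, read 341 and 337 on the DRlyp/lyp arrays and 134 and 148 on the DR+/+ arrays. The arrays of each pool lay close together and the pools far apart, with a log2 difference of 1.27 ± 0.15 (SE), adjusted p = 4.97e-05. Ccnb2, a B-type cyclin, read 385 and 369.9 on the DRlyp/lyp arrays and 169 and 145 on the DR+/+ arrays, a log2 difference of 1.27 ± 0.15 (SE), adjusted p = 4.81e-05. Ccnb1, the other B-type cyclin, read 153 and 211 on the DRlyp/lyp arrays and 87.8 and 72.7 on the DR+/+ arrays, a log2 difference of 1.17 ± 0.22 (SE), adjusted p = 0.00134, and its second probe set was also higher (165 and 134 against 34.9 and 79.8, 2.82-fold higher, adjusted p = 0.004). Ccna2, the cyclin of S phase and G2, read 154 and 264 on the DRlyp/lyp arrays and 37.8 and 97.8 on the DR+/+ arrays. Its DR+/+ arrays differed from each other by more than 2-fold, and the log2 difference was 1.73 ± 0.38 (SE), adjusted p = 0.00359. For Ccna2 the adjusted p rose to 0.0837 with DRlyp/lyp array 2 left out and 0.0858 without the intensity trend. Ccna2 differed by 1.05 with DR+/+ array 1 left out and 2.42 with DR+/+ array 2 left out, on the log2 scale. Cdkn3, a phosphatase of Cdk proteins that peaks in mitosis, read 349 and 375 on the DRlyp/lyp arrays and 134 and 163 on the DR+/+ arrays, a log2 difference of 1.29 ± 0.15 (SE), adjusted p = 5.94e-05.

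Plk1 rose, and the Aurora kinases and survivin did not pass the threshold. Plk1, a kinase of spindle assembly and mitotic entry, read 101 and 113 on the DRlyp/lyp arrays and 66.6 and 49.9 on the DR+/+ arrays, a log2 difference of 0.89 ± 0.25 (SE), adjusted p = 0.0132. Plk1 missed the threshold at an adjusted p of 0.0752 with DRlyp/lyp array 1 left out, 0.131 with DRlyp/lyp array 2 left out and 0.0519 with DR+/+ array 2 left out. Aurka, a kinase of the spindle poles, read 123 and 138 against 101 and 108, a log2 difference of 0.32 (adjusted p = 0.22). Aurkb, the kinase of the chromosomal passenger complex, read 216 and 246 against 171 and 199, a log2 difference of 0.32 (adjusted p = 0.132). Birc5, or survivin, a subunit of the same complex, read 29.1 and 35.0 against 27.5 and 21.3, close to the filter throughout (adjusted p = 0.459). For these last 3 genes both DRlyp/lyp arrays were above both DR+/+ arrays, but by less than the test could separate from the spread between arrays.

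Of 7 genes of the spindle checkpoint and of anaphase, 6 rose. Bub1b, the checkpoint protein BubR1, read 113 and 139.5 on the DRlyp/lyp arrays and 26.5 and 67.4 on the DR+/+ arrays. The DR+/+ arrays spread widely, the lower of them under the filter, and the log2 difference was 1.57 ± 0.37 (SE), adjusted p = 0.00564. For Bub1b the adjusted p rose to 0.084 with DRlyp/lyp array 2 left out and 0.0809 without the intensity trend. Bub1b differed by 0.90 with DR+/+ array 1 left out and 2.24 with DR+/+ array 2 left out, on the log2 scale. Cdca3, a trigger of mitotic entry, read 287 and 220.3 on the DRlyp/lyp arrays and 90.8 and 94.3 on the DR+/+ arrays, a log2 difference of 1.44 ± 0.19 (SE), adjusted p = 0.000108. Ube2c, the ubiquitin-conjugating enzyme of the anaphase-promoting complex, read 200.0 and 231 on the DRlyp/lyp arrays and 96.4 and 111 on the DR+/+ arrays, a log2 difference of 1.06 ± 0.18 (SE), adjusted p = 0.000746. Cdc20, the activator of that complex, read 187 and 176 on the DRlyp/lyp arrays and 92.1 and 105 on the DR+/+ arrays, a log2 difference of 0.89 ± 0.18 (SE), adjusted p = 0.0026. Cdc20 missed the threshold at an adjusted p of 0.051 with DRlyp/lyp array 1 left out and 0.128 with its probe sets averaged. Cdc20 differed by 0.50 with its probe sets averaged, on the log2 scale. Ttk, the checkpoint kinase Mps1, read 159.9 and 106 against 86.1 and 66.8, a log2 difference of 0.78 ± 0.25 (SE), adjusted p = 0.0278. For Ttk the adjusted p rose to 0.318 with DRlyp/lyp array 1 left out, 0.13 with DR+/+ array 2 left out and 0.0971 without the intensity trend. Ttk differed by 0.48 with DRlyp/lyp array 1 left out, on the log2 scale. Bub1, another checkpoint kinase, read 129 and 143 against 104 and 66.9, a log2 difference of 0.70 ± 0.24 (SE), adjusted p = 0.0359. Bub1 missed the threshold at an adjusted p of 0.132 with DRlyp/lyp array 1 left out, 0.22 with DRlyp/lyp array 2 left out, 0.17 with DR+/+ array 2 left out, 0.0582 with median centring and 0.108 without the intensity trend. Bub1 differed by 0.39 with DR+/+ array 2 left out, on the log2 scale. Mad2l1, the checkpoint protein that holds Cdc20, read 112 and 151 against 149.5 and 122, with overlapping arrays and a log2 difference of -0.06 (adjusted p = 0.858). Another of its probe sets was higher past the threshold (73.2 and 82.9 against 27.2 and 30.9, a log2 difference of 1.43, adjusted p = 0.00272).

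Genes of the spindle, the chromosomes and cytokinesis held the largest difference of the 42. Racgap1, part of the centralspindlin complex of dividing cells, read 312 and 262 on the DRlyp/lyp arrays and 97.0 and 61.1 on the DR+/+ arrays. Its log2 difference of 1.89 ± 0.23 (SE), adjusted p = 5.94e-05, was the 128th highest of the 9349 genes tested. Cenpf, a kinetochore protein of G2 and mitosis, read 214 and 256 on the DRlyp/lyp arrays and 76.6 and 64.5 on the DR+/+ arrays, a log2 difference of 1.74 ± 0.20 (SE), adjusted p = 4.22e-05. Mki67, the proliferation antigen Ki-67 that coats mitotic chromosomes, read 924 and 944 on the DRlyp/lyp arrays and 345 and 324 on the DR+/+ arrays. The arrays of each pool agreed closely, the DRlyp/lyp pool was 2.8-fold higher, and the adjusted p of 8.37e-07 was the smallest of the 42 genes. Nusap1, which bundles spindle microtubules, read 242 and 244 on the DRlyp/lyp arrays and 109.5 and 92.3 on the DR+/+ arrays, a log2 difference of 1.28 ± 0.17 (SE), adjusted p = 0.00016, while a dimmer probe set of it did not differ past the threshold (44.5 and 63.6 against 56.0 and 51.0, a log2 difference of -0.01, adjusted p = 0.989). Nusap1 differed by 0.63 with its probe sets averaged, on the log2 scale.

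Top2a, the topoisomerase that untangles sister chromosomes, read 168 and 174 on the DRlyp/lyp arrays and 87.7 and 111 on the DR+/+ arrays, a log2 difference of 0.80 ± 0.19 (SE), adjusted p = 0.00688. For Top2a the adjusted p rose to 0.0657 with DRlyp/lyp array 1 left out, 0.0791 with DRlyp/lyp array 2 left out and 0.0755 with its probe sets averaged. Kif11, the motor that separates spindle poles, read 122 and 85.2 against 74.2 and 74.0, a log2 difference of 0.46 (adjusted p = 0.156). Prc1, which crosslinks the central spindle, read 154 and 159.8 against 145 and 143, a log2 difference of 0.12 (adjusted p = 0.608). Tacc3, a spindle microtubule protein, read 397 and 423 against 492 and 446, a log2 difference of -0.19 (adjusted p = 0.203). Its DRlyp/lyp arrays were the only ones among the G2/M genes to lie below both DR+/+ arrays.

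**Figure D3:**
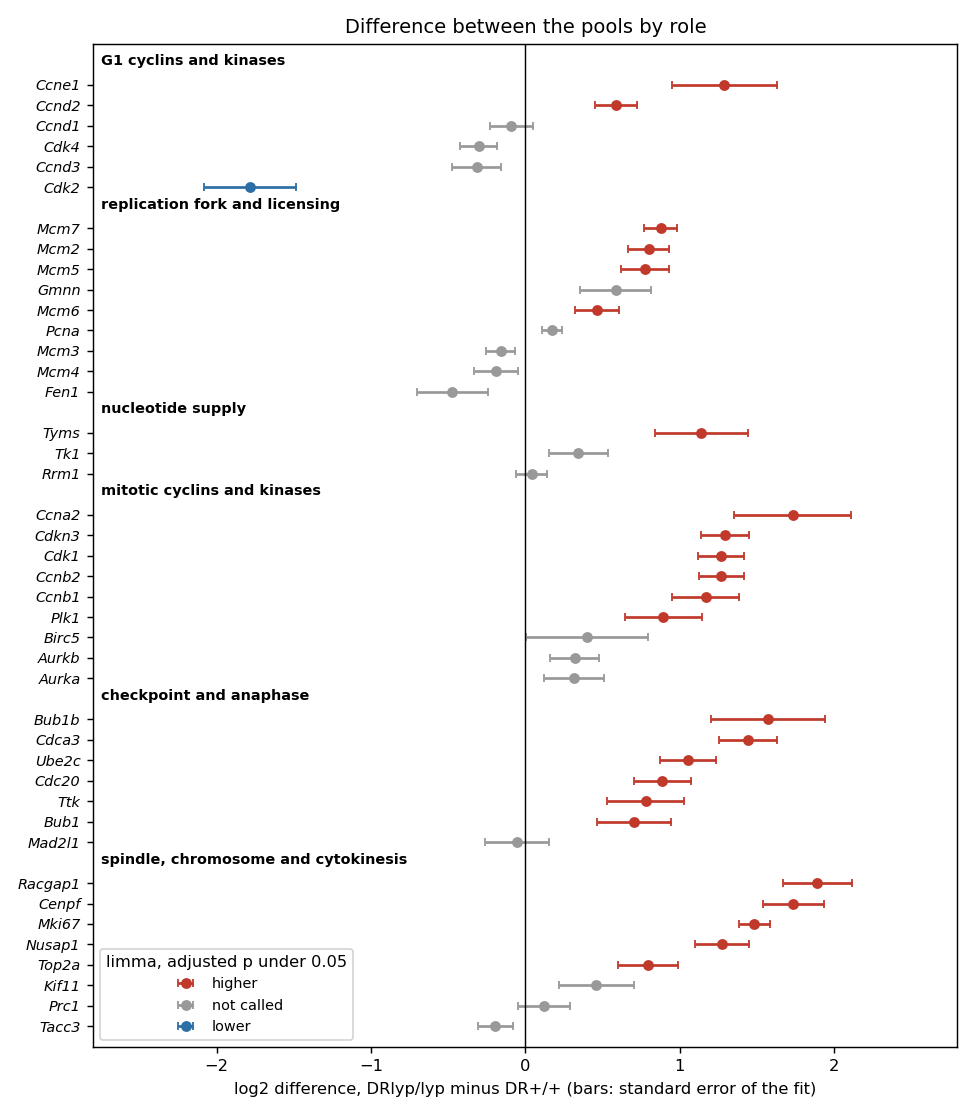
Log2 difference, DRlyp/lyp minus DR+/+ (x axis), of each of the 42 genes by role, with bars for the standard error of the fit and colours for the call. All 6 called genes of mitotic cyclins and kinases, 6 of checkpoint and anaphase and 5 of spindle, chromosome and cytokinesis lie to the right of 0, whereas the G1 cyclins and kinases lie on both sides, with Cdk2 at -1.78.

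Probe sets of the same gene did not always give the same value. Of the 42 genes, 13 had more than 1 probe set and the brightest represented the gene. Of 19 other sets 14 passed the filter, and 10 of these differed in the direction of the brightest set. Of the 14, 6 passed the threshold, 5 of them in the direction of the brightest set. The exception was the Mad2l1 set given above. The sets of Cdk2 and of Ccnb1 agreed in direction and call. Where each set lies along its transcript is not given in the sources used here, and with an excess of 3′ signal that differed between the pools the part of that position was not tested.

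**Figure D4:**
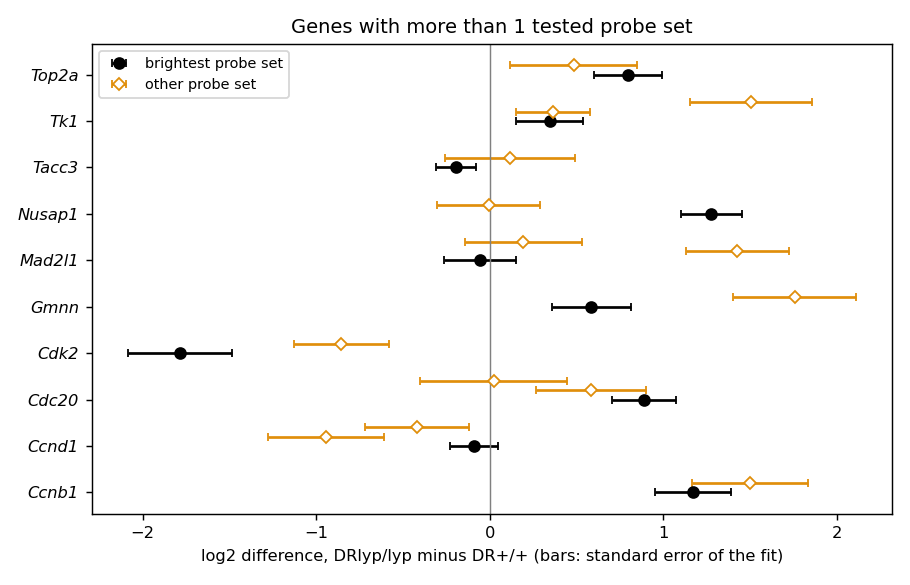
Log2 difference, DRlyp/lyp minus DR+/+ (x axis), of the brightest probe set (filled) and the other tested sets (open) of the 10 genes with more than 1 tested set, with bars for the standard error of the fit. The sets of Cdk2 lie left of 0 and those of Ccnb1 right of 0, whereas those of Mad2l1 and Nusap1 lie far apart.

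Other genes of DNA replication were called higher more often than all genes, and lower less often. Of 192 further cell cycle genes listed, 165 were matched and 150 tested, and 50 of these were higher (33.3%) and 16 lower (10.7%), against 20.9% and 21.1% of all genes. Their median log2 difference was 0.39. With DRlyp/lyp array 1 or 2 left out 30 or 29 of them were higher, and with DRlyp/lyp array 2 left out 8 were lower. Without the intensity trend 34 were higher and 6 lower, and without a filter 12 and 2. Of the 29 named below, chosen as the largest called differences of each list, 5 kept their calls without a filter, namely Rfc2, Cdkn2d, Spc24, Nuf2 and Wee1. With 50 added to each signal all 29 were kept, at log2 differences more than 1.5 times smaller for 8 of them, 0.84 for Chaf1b, 0.41 for Clspn, 0.70 for Exo1, -0.55 for E2f1, -0.58 for Cdc27, 0.87 for Mybl2, 0.74 for Ska1 and 0.81 for Smc4. Of 47 replication genes tested, 15 were higher (31.9%) and 6 lower (12.8%), against 20.9% and 21.1% of all genes. The median of the 47 was 0.14. Cdc45, the helicase cofactor that fires origins, read 352 and 342 against 150.4 and 178, a log2 difference of 1.09 (adjusted p = 0.000158). Rfc2, a subunit of the loader of the Pcna clamp, read 598 and 569 against 249 and 274, a log2 difference of 1.16 (adjusted p = 1.86e-05). Chaf1b, a chaperone that places histones behind the fork, read 77.5 and 73.6 against 22.8 and 17.9; both DR+/+ arrays were below the filter, so it was higher by at least 2.67-fold (adjusted p = 0.000858). Exo1, a nuclease of repair and replication, read 107 and 98.7 against 47.4 and 41.4, a log2 difference of 1.22 (adjusted p = 0.00251). Exo1 missed the threshold at an adjusted p of 0.0505 with DRlyp/lyp array 1 left out. Clspn, a checkpoint adaptor at the fork, read 43.7 and 34.8 against 14.7 and 19.3 and was at least 1.38-fold higher (adjusted p = 0.0372). For Clspn the adjusted p rose to 0.252 with DRlyp/lyp array 1 left out, 0.117 with DRlyp/lyp array 2 left out, 0.0841 with DR+/+ array 1 left out, 0.0565 with median centring and 0.0571 with quantile normalization.

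The lower replication genes with the largest differences follow. Prim1, the catalytic subunit of primase, read 200.2 and 240.2 against 361 and 482, a log2 difference of -0.93 (adjusted p = 0.000871). Prim2, the other primase subunit, named after its values were seen, read 176 and 174 against 126 and 146, with both DRlyp/lyp arrays above, a log2 difference of 0.37 (adjusted p = 0.116). Slbp, which binds the stem-loop of histone transcripts, read 155 and 229 against 335 and 292, a log2 difference of -0.73 (adjusted p = 0.00833). Slbp missed the threshold at an adjusted p of 0.135 with DRlyp/lyp array 1 left out, 0.0689 with DR+/+ array 1 left out and 0.0861 without the intensity trend. Slbp differed by -0.45 with DRlyp/lyp array 1 left out, on the log2 scale. The maintenance methyltransferase Dnmt1 read 168 and 132 against 211 and 224 (-0.54, adjusted p = 0.0263). For Dnmt1 the adjusted p rose to 0.246 with DRlyp/lyp array 2 left out, 0.0538 with DR+/+ array 1 left out, 0.0858 with DR+/+ array 2 left out and 0.0768 without the intensity trend. Atad2, a bromodomain ATPase, read 337 and 315 against 472 and 422 (-0.45, adjusted p = 0.0112). Atad2 missed the threshold at an adjusted p of 0.0639 with DRlyp/lyp array 1 left out, 0.113 with DRlyp/lyp array 2 left out, 0.0511 with DR+/+ array 1 left out and 0.0682 without the intensity trend. Rfc1, the large subunit of the clamp loader, read 401 and 337 against 495 and 479 (-0.40, adjusted p = 0.0209). For Rfc1 the adjusted p rose to 0.228 with DRlyp/lyp array 2 left out, 0.0689 with DR+/+ array 1 left out, 0.104 without the intensity trend and 0.299 with its probe sets averaged. Rfc1 differed by -0.20 with its probe sets averaged, on the log2 scale.

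Regulators of G1 were called about as often as all genes, in both directions. Of 21 tested, 4 were higher and 5 lower (19% and 23.8%, against 20.9% and 21.1% of all genes). E2f2, an activating E2F factor, read 247 and 229.6 against 130.5 and 87.4, a log2 difference of 1.16 (adjusted p = 0.000942), with no overlap. Its relative E2f1 was lower, reading 81.0 and 36.6 against 102 and 109, a log2 difference of -0.95 (adjusted p = 0.0396). E2f1 missed the threshold at an adjusted p of 0.381 with DRlyp/lyp array 2 left out, 0.119 with DR+/+ array 1 left out, 0.152 with DR+/+ array 2 left out and 0.154 without the intensity trend. E2f1 differed by -1.53 with DRlyp/lyp array 1 left out and -0.38 with DRlyp/lyp array 2 left out, on the log2 scale. The retinoblastoma gene Rb1 read 947 and 1023 against 557 and 707 and its relative Rbl1 656 and 599.5 against 428 and 399, both higher (0.65, adjusted p = 0.000941, and 0.60, adjusted p = 0.00104). For Rb1 the adjusted p rose to 0.0558 without the intensity trend. Rbl2, the relative found in the DREAM complex of resting cells, was lower at 819.5 and 756 against 1037 and 1133 (-0.46, adjusted p = 0.00179). Rbl2 missed the threshold at an adjusted p of 0.0635 without the intensity trend. Tfdp1, the partner of the E2F factors, read 560.1 and 599 against 468 and 413 (0.40, adjusted p = 0.0141). For Tfdp1 the adjusted p rose to 0.0763 with DRlyp/lyp array 1 left out, 0.148 with DRlyp/lyp array 2 left out, 0.0572 with DR+/+ array 2 left out, 0.0982 with median centring and 0.0919 without the intensity trend. Cdkn2d, an inhibitor of Cdk4, read 97.7 and 103 against 215 and 218, a log2 difference of -1.11 (adjusted p = 0.000391). Myc, the growth-promoting transcription factor, read 128 and 145 against 226 and 278, a log2 difference of -0.88 (adjusted p = 0.00168). Cdkn1b, the inhibitor p27 of resting cells, read 1206 and 1154 against 1332 and 1412 (-0.22, adjusted p = 0.0423). Cdkn1b missed the threshold at an adjusted p of 0.13 with DRlyp/lyp array 1 left out, 0.238 with DRlyp/lyp array 2 left out, 0.136 with DR+/+ array 2 left out and 0.228 without the intensity trend. Cdkn1b differed by -0.33 with median centring, on the log2 scale.

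Of 82 further mitotic genes tested, 31 were higher (37.8%) and 5 lower (6.1%), against 20.9% and 21.1% of all genes. The median log2 difference of the 82 was 0.48. The list was drawn broadly and holds genes whose roles are not confined to mitosis, among them Cdca7, Cdca7l, H2az1 and Lmnb1. Of these, named after their values were seen, Cdca7 (0.84) and H2az1 (0.47) were higher. Cdca7l (0.21) and Lmnb1 (0.13) were not called. Spc24, a subunit of the kinetochore Ndc80 complex, read 328 and 316 against 81.7 and 105, a log2 difference of 1.80 (adjusted p = 1.42e-05), and Nuf2, another subunit of that complex, read 342 and 349 against 119.9 and 114, a log2 difference of 1.57 (adjusted p = 1.20e-05). Mybl2, or B-Myb, which switches on mitotic genes through the CHR, read 88.0 and 123 against 27.6 and 42.0, a log2 difference of 1.61 (adjusted p = 0.00152). For Mybl2 the adjusted p rose to 0.0502 with DRlyp/lyp array 2 left out. Ska1, which ties kinetochores to microtubules, read 72.2 and 56.5 against 15.8 and 21.1 and was at least 2.26-fold higher, with both DR+/+ arrays below the filter (adjusted p = 0.00219). Ska1 missed the threshold at an adjusted p of 0.0616 with DRlyp/lyp array 1 left out. Smc4, a condensin subunit, read 125 and 114 against 14.8 and 93.4, a log2 difference of 1.68 (adjusted p = 0.0437). DR+/+ array 1 lay far below the other arrays. For Smc4 the adjusted p rose to 0.209 with DRlyp/lyp array 1 left out, 0.171 with DRlyp/lyp array 2 left out, 0.224 with DR+/+ array 1 left out, 0.233 without the intensity trend and 0.593 with its probe sets averaged. Smc4 differed by 0.36 with DR+/+ array 1 left out, 3.01 with DR+/+ array 2 left out and 0.37 with its probe sets averaged, on the log2 scale.

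The 5 lower mitotic genes were Wee1, Anapc11, Ube2s, Cdc27 and Tubb5. Wee1, the kinase that restrains Cdk1, read 186 and 197 against 333 and 332, a log2 difference of -0.80 (adjusted p = 0.000774). Wee1 differed by -0.45 with its probe sets averaged, on the log2 scale. Anapc11, the catalytic subunit of the anaphase-promoting complex, read 327 and 365 against 515 and 593, a log2 difference of -0.68 (adjusted p = 0.00102). Ube2s, which lengthens the ubiquitin chains that the complex makes, read 111 and 85.8 against 160.0 and 182 (-0.81, adjusted p = 0.00752). Ube2s missed the threshold at an adjusted p of 0.1 with DRlyp/lyp array 2 left out. Cdc27, a scaffold subunit, read 12.8 and 17.2 against 29.0 and 68.9, was below the filter on both DRlyp/lyp arrays and was lower by at least 1.58-fold (adjusted p = 0.0218). For Cdc27 the adjusted p rose to 0.135 with DRlyp/lyp array 1 left out, 0.0635 with DRlyp/lyp array 2 left out, 0.178 with DR+/+ array 2 left out and 0.0722 without the intensity trend. Cdc27 differed by -0.97 with DR+/+ array 2 left out, on the log2 scale. The other tested subunits of the anaphase-promoting complex on the list were named after their values were seen. Anapc5 read 1629 and 1687 against 1218 and 1226 and Cdc16 534 and 509.6 against 372 and 424, both higher (0.44, adjusted p = 0.000548, and 0.39, adjusted p = 0.0179). Anapc5 missed the threshold at an adjusted p of 0.0556 without the intensity trend. For Cdc16 the adjusted p rose to 0.161 with DRlyp/lyp array 1 left out, 0.0949 with DRlyp/lyp array 2 left out, 0.0689 with DR+/+ array 1 left out, 0.12 with median centring and 0.094 without the intensity trend. Anapc1 and Cdc23 differed by -0.20 (adjusted p = 0.501) and -0.04 (adjusted p = 0.839), short of the threshold. Tubb5, a beta-tubulin, read 1656 and 1606 against 2108 and 2227 (-0.41, adjusted p = 0.000569). Tubb5 missed the threshold at an adjusted p of 0.0673 without the intensity trend. Tubb5 differed by -0.20 with its probe sets averaged, on the log2 scale. Foxm1, the other mitotic activator named in the background, was chosen for mention after its values were seen. It read 41.7 and 26.6 against 29.5 and 22.1, close to the filter, and its difference of 0.38 did not pass the threshold (adjusted p = 0.491).

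**Figure D5:**
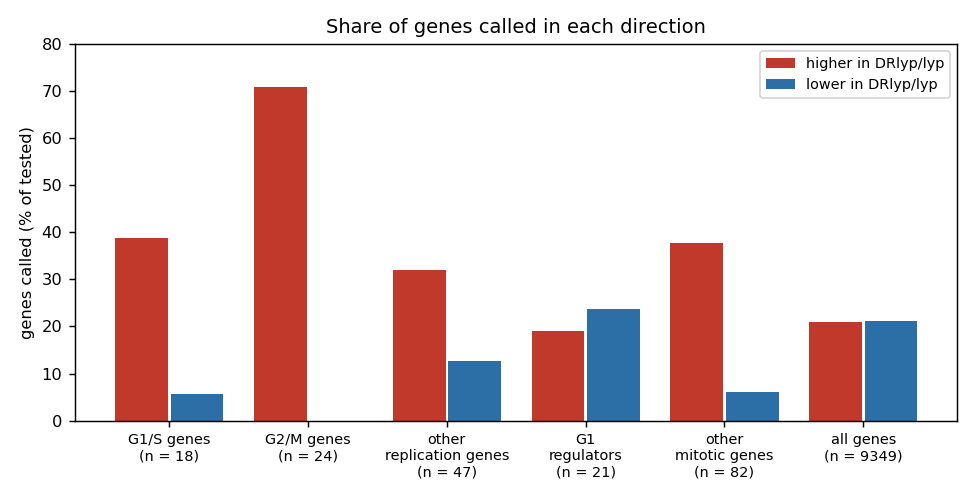
Percent of tested genes called higher or lower in the DRlyp/lyp pool (y axis; limma, adjusted p under 0.05) for the 18 G1/S and 24 G2/M genes, the 3 lists of other cell cycle genes and all 9349 genes tested. The G2/M genes have the tallest bar, 70.8% higher and 0% lower, and the G1 regulators, 19% and 23.8%, lie close to all genes, 20.9% and 21.1%.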

How the data were processed

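The deposited values are intensity in linear units, a signal per probe set and array, for which the sources used here name no program or scaling, and were not rescaled. Groups and replicate numbers came from the sample titles, with DP read as DRlyp/lyp from the descriptions. Of 31099 probe sets the 57 controls were not tested. Signals below 6.8, the 25th percentile over all arrays, were set to 6.8 before taking log2. The 16068 sets that exceeded 28.3, the median over all arrays, on 2 arrays or more were compared by limma 3.58.1 (R 4.3.3; lmFit, eBayes with intensity trend, two-sided, 2 residual degrees of freedom), with Benjamini-Hochberg adjusted p-values over all of them. The fit was tested on simulated arrays. Symbols came from the platform annotation (20826 sets with 1 symbol, 436 with several, 9780 with none), and the brightest tested set stood for a gene. Where both arrays of 1 pool were at or under 28.3, the fold is a bound against 28.3. The members, lists and tests were chosen with earlier results of these data known. Named were the 42 matched members, from each list of other cell cycle genes the 5 largest called differences in each direction whose arrays did not overlap (fewer where fewer were called), and the defining markers of other cell types. Alternatives changed the scaling, filter, floor, block, arrays, variance trend, fold tested and probe set summary. Plots used matplotlib 3.10.9 and Python 3.11.15.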

Additional observations from a re-analysis of the deposited data

How the results depend on the processing

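Quantile normalization, the floor at the 10th percentile and the offset of 50 moved no member across the threshold (limma), though quantile normalization left Birc5 untested. Each alternative was planned. Without a filter the number of called probe sets fell from 6302 to 1671, with 5 members higher and 0 lower (2 at an unadjusted p under 0.05), 0 G1/S members higher (6 unadjusted) and 0 lower, 5 G2/M members higher, and 12 other cell cycle genes higher and 2 lower. The test against 1.5-fold called 958 probe sets, 8 members higher, 0 of them G1/S (3 unadjusted) and 8 G2/M, and 9 other cell cycle genes higher and 0 lower (3 unadjusted). Without the intensity trend 4057 probe sets were called and 6 other cell cycle genes were lower. The filter at the 75th percentile left 25 members to test, which alone lowers the counts: 11 G2/M members and 33 other genes were higher, and the difference between the phase medians was 1.16. Median centring called 2 members lower, both G1/S, gave a member median of 0.63 and turned Rrm1 to -0.071, a shift that the centring itself sets. The offset of 50, which shrinks differences of dim genes, gave a member median of 0.51 and a phase difference of 0.51. Averaging the probe sets of a gene turned Mad2l1 to 0.52. With that averaging 9 G1/S and 15 G2/M members were higher, and the difference between the phase medians was 0.52. With 1 array left out, the counts ran from 3478 to 5800 probe sets, 15 to 23 members higher and 1 to 2 lower, 3 to 6 G1/S members higher and 1 to 2 lower, 29 to 51 other genes higher and 8 to 13 lower, the member median from 0.57 to 0.74, and Mad2l1 from -0.27 to 0.16. The cause was not tested for the other changes. Same-numbered arrays did not deviate together (correlation 0.0438). With 2 arrays in each pool this does not settle whether the numbers pair them. With the replicate block 7044 probe sets were called, and 25 members were higher and 3 lower, all 3 G1/S (Cdk2, Cdk4 and Fen1). Signal near 28.3 limits Birc5 and Foxm1, and 2 pools limit every comparison.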
